A study of Rattus norvegicus with 26 samples.

Results

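The maturation of the heart was followed in F344 rats, an inbred normotensive strain, from day 20 of fetal development (E20) to week 14 after birth, when the rats are young adults. The comparison holds 15 of the 26 arrays of the series, chosen by strain and stage in the sample titles, with 7 hearts of F344 at E20 and 8 hearts of F344 at week 14. All animals were males with no treatment named in the labels, and each array was hybridised with RNA of 1 animal. The other 11 arrays are from SHRSP, a stroke-prone inbred strain with high blood pressure and a thickened left ventricle, at E20 (4 arrays) and week 14 (7 arrays), and they are used only to show where the change in F344 differed.

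The dissected tissue changed with the stage. By the methods, both ventricles without the atria were taken at E20 and only the free wall of the left ventricle, without the septum and the right ventricle, at week 14, and RNA was isolated with an RNeasy kit at E20 and with TRIzol at week 14. The sample labels name the whole heart for E20 and TRIzol for both stages. Stage, tissue and, by the methods, isolation kit therefore cannot be told apart in any value below. Because RNA of whole tissue was measured, fewer cells of a type and less RNA per cell cannot be told apart either.

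Around birth the heart muscle cell of mammals stops dividing, grows in size, and passes from a fuel supply of glucose and lactate at low oxygen to the oxidation of fatty acids in a dense network of mitochondria. Fetal isoforms of the contractile proteins and enzymes are exchanged for adult ones, calcium handling moves to the sarcoplasmic reticulum, and the matrix between the cells is remodelled. Resident macrophages and other immune cells settle in the wall.

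Expression was read on Illumina RatRef-12 BeadChips with 22523 probes as log2 intensity, quantile-normalized by the authors. The lowest value was 6.64, the median 7.16 and the highest 15.53. A value below about 7.5 lies in the lowest part of the scale, where background signal hides differences, so a fold change that starts or ends there understates the change in RNA. Each change below is the mean at week 14 minus the mean at E20 on the log2 scale, so a positive value is a rise with age, and ± gives its standard error. It comes from a limma fit over the 4 groups of strain and stage, and every adjusted p is a Benjamini-Hochberg value taken over the whole set of probes. Genes that are said to have risen or fallen passed an adjusted p under 0.05, and a probe or gene is called if it also changed by more than 1.5. Levels of different probes are not compared, since probes differ in their response.

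Of all probes, 3866 rose, 4179 fell and 14478 did not pass, and 246 rose (1.09%) and 198 fell (0.879%) past the fold change limit. Of the 3866 and 4179 probes past the adjusted p alone, 4046 did not overlap between the stages. None of the 444 called probes overlapped, and a large fold change makes overlap unlikely. The probes belong to 13337 named genes, of which 2814 rose (21.1%), 2934 fell (22.0%) and 7589 did not pass, and these shares are the background for the gene lists below. Past the fold change limit, 220 named genes rose (1.65%) and 161 fell (1.21%). The median change over all named genes was 0.01, and 6.45% of them changed by more than 1. Both stage means lay under 7.5 for 7321 named genes. Of the genes called as rising, 61 had an E20 mean under 7.5, and 57 of those called as falling had a week 14 mean under it.

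These counts assume that most probes do not change, as quantile normalization does. When the arrays were instead shifted to equal medians of ribosomal protein genes, called ribosomal scaling below, the median change of all probes moved by 0.44, and 499 probes rose and 109 fell past the limit, against 246 and 198. Of 54 gene lists, 14 then turned their majority direction. The counts with ribosomal scaling are given beside each list whose majority turned or whose rising or falling count moved by more than 1.5 times. The shares of all named genes that rose or fell under this scaling were not counted. These counts therefore have no background and only show how far a list depends on the scaling. The shift also lifts the changes of members in the lowest part of the scale, which add to the rising counts of lists that hold many of them.

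Arrays of the same stage correlated more closely than the means of the stages did. The stage means correlated with a Pearson's r of 0.943 across probes, which are not independent replicates. The first principal component of the 15 arrays held 79.4% of the variance, and its relation to stage was not computed. The mean r of an array with the others of its stage was 0.9911 to 0.9946 at E20 and 0.9852 to 0.992 at week 14. Replicate 3 of week 14 stood apart, with 270 probes more than 0.7 from the median of its stage, against 26 to 83 for the other week 14 hearts and 2 to 136 for the E20 hearts. Without it 260 probes rose and 201 fell past the limit, and 238 and 195 of these were among the probes called with it.

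**Figure D1:**
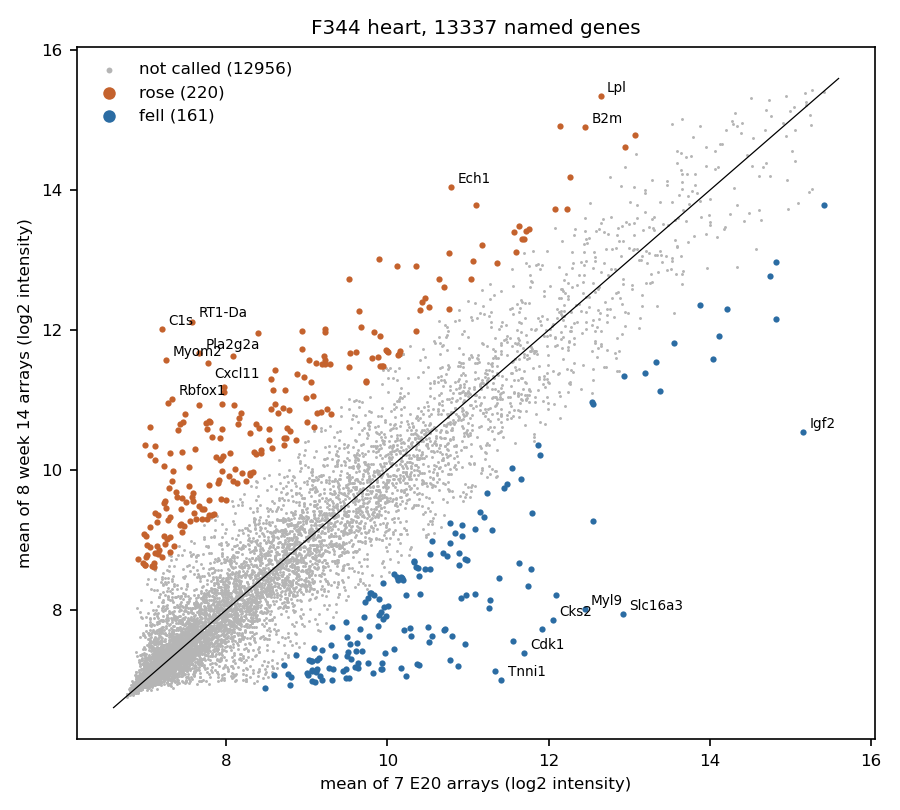
Mean log2 intensity of each named gene in F344 at E20 (horizontal axis) and at week 14 (vertical axis), 1 point per gene, with the called genes coloured. The 220 genes that rose lie above the diagonal and the 161 that fell below it, and many of both reach the lowest part of the scale in 1 of the stages.

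The genes with the largest changes are given by what they are known to do. Among the 15 that rose most were C1s, RT1-Da, RT1-A1, Cxcl11, Ccl5 and Pla2g2a of immune defence, Myom2 and Itga7 of the muscle fibre and its attachment, Ech1 and Pdk4 of fuel use, and Hsd11b1, Ces1d, Akr1c15 and Aldh1a1 of hormone, lipid and aldehyde metabolism. Rbfox1, a splicing regulator of muscle and nerve, completes them. Among the 15 that fell most were Cdk1, Cks2, Rrm2, Ccnb2, Prc1, Knstrn and Hmgb2 of dividing cells, together with Slc16a3, Igf2, Tnni1, Myl9, Postn, Itm2a, Epb41l3 and Cdhr1. None of the 30 overlapped between the stages, which the choice required.

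**Figure D2:**
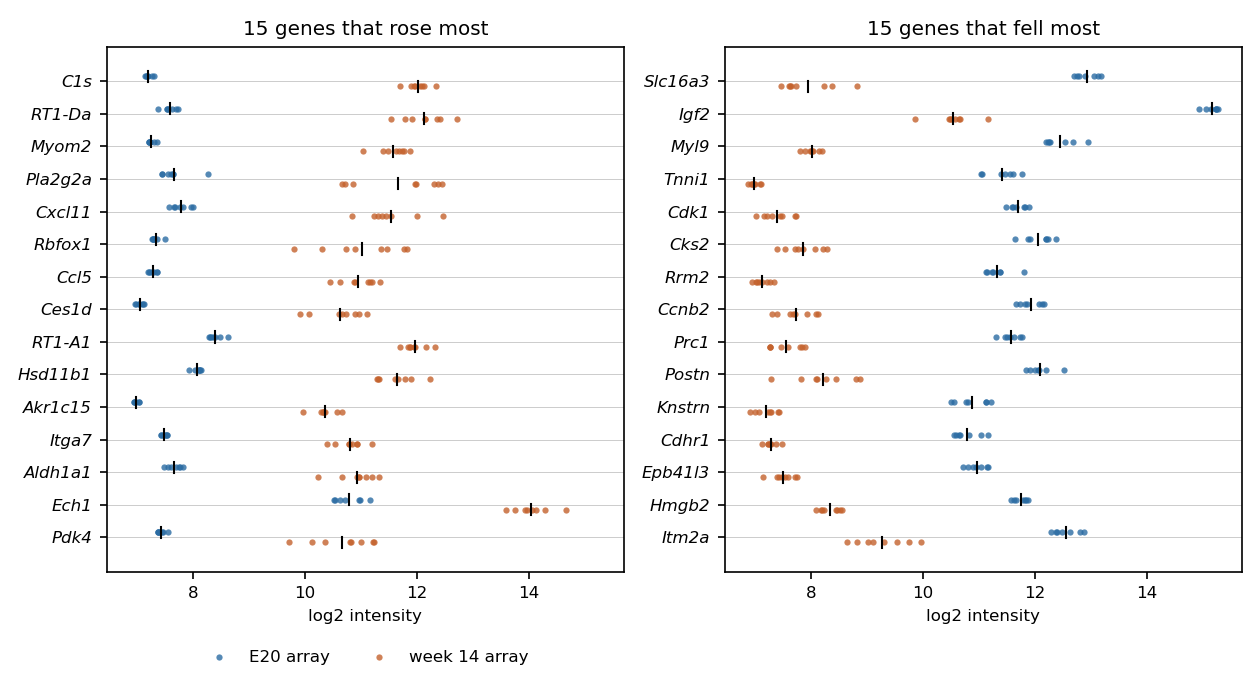
Log2 intensity in each F344 heart for the 15 named genes that rose most and the 15 that fell most, with 7 hearts at E20 and 8 at week 14. Each point is 1 heart, and the points of the stages are apart for every gene.

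Genes of cell division fell almost without exception. Cdk1, the kinase that drives entry into mitosis, lay at 11.49 to 11.89 (median 11.67) at E20 and 7.02 to 7.73 (median 7.38) at week 14, and it fell by 4.31 ± 0.11 (19.9-fold, adjusted p = 1.97e-21). Its small partner subunit Cks2 was at 11.64 to 12.38 (median 12.19) at E20 and 7.39 to 8.28 (median 7.81) at week 14 and fell by 4.21 ± 0.12 (18.5-fold, adjusted p = 3.16e-20). All E20 hearts were far above all week 14 hearts, which lay near the bottom of the scale. From the list of mitosis, 38 genes were measured, of which 1 rose, 36 fell and 1 did not pass (2 rose and 33 fell with ribosomal scaling), with a median change of -2.21. In 24 of its members the fall passed the fold change limit. Ccnb2, a cyclin that activates Cdk1, fell by 4.19 ± 0.13 (18.3-fold, adjusted p = 9.32e-20), and Prc1, which bundles the microtubules of the dividing cell's midzone, fell by 4.02 ± 0.10 (16.2-fold, adjusted p = 2.19e-21). Knstrn, a protein of the spindle and kinetochore, fell by 3.67 ± 0.11 (12.7-fold, adjusted p = 2.65e-20) and lies outside the list.

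The replication of DNA followed the same course. Rrm2, the subunit of ribonucleotide reductase that limits the supply of deoxynucleotides, was at 11.13 to 11.81 (median 11.25) at E20 and 6.94 to 7.34 (median 7.1) at week 14, and it fell by 4.2 ± 0.09 (18.4-fold, adjusted p = 5.93e-23). In the list of replication, 30 genes were measured, of which 29 fell and 1 did not pass (1 rose and 25 fell with ribosomal scaling), with a median of -1.22, and 13 of the falls passed the fold change limit. Mcm6, a subunit of the replicative helicase, fell by 3.14 ± 0.10, the DNA primase subunit Prim1 fell by 2.27 ± 0.09 and Orc6 of the origin recognition complex fell by 2.12 ± 0.05. No heart of week 14 reached the level of any E20 heart for these 4 genes.

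Regulators of the step from G1 to S phase changed less. For the cyclins, kinases and inhibitors of G1, 22 genes were measured, of which 7 rose, 10 fell and 5 did not pass, whereas 16 rose and 5 fell with ribosomal scaling. Cdk4, the kinase that works with the D cyclins, fell by 1.74 ± 0.08 (3.34-fold, adjusted p = 2.36e-15) and was the list's only member past the fold change limit. Ccnd1, its cyclin partner, was at 10.42 to 10.83 (median 10.71) at E20 and 8.74 to 9.9 (median 9.06) at week 14 and fell by 1.48 ± 0.20. Ccne2, a cyclin of S phase entry, fell by 1.28 ± 0.05, and E2f1, a transcription factor that switches on replication genes, fell by 1.2 ± 0.05. Week 14 values of Ccne2 and E2f1 were in the lowest part of the scale.

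Promoter sequences of the genes of division were set beside these values, because genes of mitosis and genes of replication are known to carry different control elements. In mammals the CHR (TTTGAA) and CCAAT boxes are bound by the DREAM complex and NF-Y, and E2F sites by E2F factors. RefSeq promoters of the rat assembly GRCr8, which span the start of each gene, matched 10993 of the 13337 named genes. Shares were counted over these whole promoters, which are longer than the windows printed below. Of these, 15.3% held TTTGAA on either strand, 37.7% held CCAAT and 6.22% held both. For members of the mitosis list that fell, the shares were 69.0% for TTTGAA, 72.4% for CCAAT and 55.2% for both (16 of 29). Genes called as falling, which include many of these, held both in 21.8%, and genes called as rising in 5.23%. Of the 15 genes that fell most, 13 had a promoter in the table and 6 held both. The following windows, from 120 bases before to 30 after the start, show 5 of them, with TTTGAA and CCAAT on either strand in capitals.
Cdk1 (chr20:19265173-19265322, plus strand): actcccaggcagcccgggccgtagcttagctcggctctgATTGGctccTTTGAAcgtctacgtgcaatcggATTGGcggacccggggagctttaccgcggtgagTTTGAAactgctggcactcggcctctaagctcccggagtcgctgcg
Cks2 (chr17:13727490-13727639, minus strand): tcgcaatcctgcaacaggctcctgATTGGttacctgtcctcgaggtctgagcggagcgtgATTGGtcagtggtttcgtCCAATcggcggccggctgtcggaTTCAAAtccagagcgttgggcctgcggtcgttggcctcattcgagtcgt
Ccnb2 (chr8:79981629-79981778, minus strand): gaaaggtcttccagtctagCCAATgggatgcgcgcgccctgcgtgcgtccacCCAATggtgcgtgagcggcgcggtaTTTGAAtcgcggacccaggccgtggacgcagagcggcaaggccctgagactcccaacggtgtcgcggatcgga
Prc1 (chr1:143659361-143659510, plus strand): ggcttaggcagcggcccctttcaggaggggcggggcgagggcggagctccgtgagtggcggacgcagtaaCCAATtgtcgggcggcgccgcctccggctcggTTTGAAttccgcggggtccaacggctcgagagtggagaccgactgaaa
Hmgb2 (chr16:37723921-37724070, minus strand): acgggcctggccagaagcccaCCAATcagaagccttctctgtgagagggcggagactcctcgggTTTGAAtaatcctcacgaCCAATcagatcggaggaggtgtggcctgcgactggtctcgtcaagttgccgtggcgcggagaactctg

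E2F-like sites, searched as TTTCCCGC, TTTCGCGC, TTTGCCGC and TTTGGCGC on both strands, stood in 3.14% of all promoters, in 58.3% of those of replication genes that fell (14 of 24) and in 3.45% of those of mitosis genes that fell. TTTGAA was found in 12.5% of the replication genes. The promoters of 3 replication genes that fell show the sites in capitals. They were chosen after their values and sequences were seen. Pole2, a subunit of DNA polymerase epsilon, fell by 2.01 ± 0.04 (4.04-fold, adjusted p = 1.49e-22), Gins1 of the replicative helicase fell by 1.99 ± 0.05 (3.98-fold, adjusted p = 8.64e-21) and Mcm2, another helicase subunit, fell by 1.93 ± 0.08 (3.81-fold, adjusted p = 2.42e-16). A match of letters is a description of the sequence and not a test of binding.
Pole2 (chr6:93435332-93435481, minus strand): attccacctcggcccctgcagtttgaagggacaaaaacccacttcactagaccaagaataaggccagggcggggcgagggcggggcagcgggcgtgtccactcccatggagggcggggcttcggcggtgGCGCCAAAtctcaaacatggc
Gins1 (chr3:160184800-160184949, plus strand): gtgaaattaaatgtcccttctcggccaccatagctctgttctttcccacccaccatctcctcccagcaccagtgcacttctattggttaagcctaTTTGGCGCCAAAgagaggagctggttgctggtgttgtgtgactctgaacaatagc
Mcm2 (chr4:122918065-122918214, minus strand): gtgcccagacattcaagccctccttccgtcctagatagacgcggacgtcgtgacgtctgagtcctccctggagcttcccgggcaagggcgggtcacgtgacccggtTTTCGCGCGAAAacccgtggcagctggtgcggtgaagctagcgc

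Genes of fetal growth fell, although with ribosomal scaling as many of the list rose as fell. Igf2, an imprinted growth factor of the fetus, was at 14.93 to 15.28 (median 15.24) at E20 and 9.85 to 11.16 (median 10.54) at week 14, and it fell by 4.62 ± 0.12 (24.5-fold, adjusted p = 5.4e-21). Its E20 values lie near the top of the scale, which can compress them, and every week 14 heart was far below. For the list of fetal growth genes, many of them imprinted, 17 genes were measured, of which 11 fell and 6 did not pass, with a median of -0.72, whereas 8 rose and 8 fell with ribosomal scaling. Without week 14 replicate 1 or 2, 1 member rose. Gpc3, a proteoglycan of the cell surface that restrains growth, was at 10.73 to 10.87 (median 10.81) at E20 and 7.49 to 7.75 (median 7.61) at week 14 and fell by 3.18 ± 0.05 (9.05-fold, adjusted p = 5.16e-25). Ndn, which holds back the cell cycle in differentiating cells, fell by 2.92 ± 0.09, and Dlk1, an imprinted membrane protein of fetal tissues, fell by 2.31 ± 0.09. In the wider list of the insulin-like growth factor system, 14 genes were measured, of which 2 rose, 6 fell and 6 did not pass, whereas 10 rose and 1 fell with ribosomal scaling. Igfbp6, a binding protein that prefers the product of Igf2, rose by 1.22 ± 0.09, and the growth hormone receptor Ghr rose by 0.47 ± 0.08, whereas Igfbp3 fell by 0.92 ± 0.15 and the receptor Igf1r fell by 0.44 ± 0.06, though not after scaling to ribosomal protein genes (adjusted p = 0.97). The stages overlapped for Ghr, Igfbp3 and Igf1r.

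In the contractile apparatus, the isoforms of troponin I were exchanged. Tnni1, troponin I of slow muscle and of the heart before birth, was at 11.03 to 11.77 (median 11.47) at E20 and 6.88 to 7.1 (median 6.97) at week 14, and it fell by 4.43 ± 0.08 (21.5-fold, adjusted p = 6e-24). Its adult counterpart Tnni3, named after its values were seen, rose by 0.76 ± 0.08 (1.7-fold, adjusted p = 2.08e-08). The stages were apart for both genes. For the proteins of the thin filament, 16 genes were measured, of which 6 rose, 5 fell and 5 did not pass (11 rose and 4 fell with ribosomal scaling). Acta1, the skeletal alpha actin, lay at 14.66 to 15.04 (median 14.82) at E20 and 11.33 to 13.41 (median 12.1) at week 14 and fell by 2.67 ± 0.18 (6.35-fold, adjusted p = 1.23e-12), the week 14 hearts spreading over a wide range below the E20 hearts. Tpm4, a tropomyosin of the cytoskeleton, fell by 1.68 ± 0.13, and Lmod2, which lengthens thin filaments, rose by 1.16 ± 0.14.

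In the thick filament, Myom2, the M-band protein of fast and adult muscle, was at 7.21 to 7.36 (median 7.24) at E20 and 11.03 to 11.88 (median 11.65) at week 14, and it rose by 4.32 ± 0.09 (19.9-fold, adjusted p = 1.49e-22), from the lower end of the scale in every E20 heart. From this list, 14 genes were measured, of which 4 rose, 3 fell and 7 did not pass (9 rose and 1 fell with ribosomal scaling). Myl7, the regulatory light chain of atrial myosin, was at 13.55 to 14.21 (median 14.18) at E20 and 10.37 to 12.26 (median 11.58) at week 14 and fell by 2.46 ± 0.20 (5.52-fold, adjusted p = 5.58e-11). Myh6, the alpha myosin heavy chain of the adult rat ventricle, rose by 0.55 ± 0.07 from values already near the top of the scale, and the stages overlapped. Mybpc3, the cardiac myosin-binding protein C, rose by 0.55 ± 0.12, also with overlap. For Myh7, the fetal beta myosin heavy chain, the paper reports no significant change between the stages in F344. Proteins of the Z disc and the costamere gave more rises than falls: 20 genes were measured, of which 12 rose, 2 fell and 6 did not pass (16 rose and 1 fell with ribosomal scaling). Nrap, an anchor of the thin filaments at the cell ends, rose by 2.17 ± 0.09 (4.5-fold, adjusted p = 3.98e-17). Myoz2, a calcineurin-binding protein of the Z disc, rose by 1.04 ± 0.06, and Ankrd1, a stretch-responsive titin partner, rose by 0.97 ± 0.09. Pdlim5, an adaptor of the Z disc, fell by 0.89 ± 0.18 with week 14 replicate 3 at 8.99 against a median of 7.39, and its stages overlapped.

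Most genes of fatty acid use rose. Of its members, 42 were measured, of which 35 rose, 4 fell and 3 did not pass (39 rose and 2 fell with ribosomal scaling), with a median of 1.34, and 12 rises passed the fold change limit. Ech1, an auxiliary enzyme for unsaturated fatty acids, was at 10.52 to 11.17 (median 10.72) at E20 and 13.59 to 14.66 (median 14.005) at week 14, and it rose by 3.25 ± 0.11 (9.54-fold, adjusted p = 1.56e-18). Acaa2, the last enzyme of the beta-oxidation spiral, was at 10.41 to 11.04 (median 10.82) at E20 and 12.81 to 13.57 (median 13.07) at week 14 and rose by 2.34 ± 0.10 (5.05-fold, adjusted p = 1.72e-16). Every week 14 heart lay above every E20 heart for both enzymes. Lipoprotein lipase, Lpl, which frees fatty acids from blood lipids at the vessel wall, rose by 2.71 ± 0.07 (6.53-fold, adjusted p = 4.14e-21), with week 14 values of 15.30 to 15.41 at the ceiling of the arrays. Pnpla2, the lipase that opens stored triglyceride, rose by 2.83 ± 0.13 (7.09-fold, adjusted p = 4.68e-16), and Plin5, which ties lipid droplets to mitochondria, rose by 2.45 ± 0.14 (5.46-fold, adjusted p = 4.43e-14).

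Genes of glucose use changed in both directions. Pdk4, the kinase that shuts pyruvate dehydrogenase when fat is burned, was at 7.37 to 7.55 (median 7.4) at E20 and 9.72 to 11.23 (median 10.81) at week 14 and rose by 3.23 ± 0.22 (9.4-fold, adjusted p = 2.09e-12). From the glycolysis list, 32 genes were measured, of which 12 rose, 11 fell and 9 did not pass (21 rose and 6 fell with ribosomal scaling), and the median was 0.03. Pgam2, the muscle phosphoglycerate mutase, rose by 2.84 ± 0.11 (7.15-fold, adjusted p = 1.16e-17), and the insulin-regulated transporter Slc2a4 (Glut4) rose by 2.31 ± 0.10 (4.97-fold, adjusted p = 3.72e-16). Pfkp, the platelet type of phosphofructokinase, was at 11.58 to 12.17 (median 11.68) at E20 and 9.12 to 10.02 (median 9.27) at week 14 and fell by 2.41 ± 0.11 (5.33-fold, adjusted p = 3.4e-16). Slc16a3 (Mct4), which exports lactate from glycolytic cells, had the largest measured fall of the named genes, with the fall of Igf2 possibly understated near the top of the scale, and lay at 12.7 to 13.18 (median 12.89) at E20 and 7.47 to 8.82 (median 7.69) at week 14. It fell by 4.99 ± 0.16 (31.7-fold, adjusted p = 1.6e-19), and all week 14 hearts lay far below the E20 hearts.

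Enzymes of ketone body and branched-chain amino acid use rose: in that list, which also holds the lactate carriers, 19 genes were measured, of which 13 rose, 2 fell and 4 did not pass (17 rose and 1 fell with ribosomal scaling). Bckdha, a subunit of the branched-chain ketoacid dehydrogenase, rose by 2.08 ± 0.07, Acat1, the mitochondrial thiolase of ketone use, rose by 2.01 ± 0.08, and the ketone dehydrogenase Bdh1 rose by 1.88 ± 0.10. For the tricarboxylic acid cycle, 21 genes were measured, of which 17 rose, 1 fell and 3 did not pass, with a median of 0.53. Ogdh, of the 2-oxoglutarate dehydrogenase complex, rose by 1.48 ± 0.09 (2.78-fold, adjusted p = 3.77e-13), Idh3g rose by 1.07 ± 0.06 and Suclg1 rose by 1.04 ± 0.09. The member that fell was Idh3b, the beta subunit of the same isocitrate dehydrogenase as Idh3g, at 9.96 to 10.55 (median 10.38) at E20 and 8.46 to 8.78 (median 8.72) at week 14, and it fell by 1.64 ± 0.08 (3.12-fold, adjusted p = 1.26e-15). Its stages did not overlap.

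The respiratory chain rose with exchanges between tissue isoforms. From this list, 31 genes were measured, of which 24 rose, 4 fell and 3 did not pass, with a median of 0.58. Cox8b, the heart and muscle form of a cytochrome c oxidase subunit, was at 12.13 to 13.53 (median 13.19) at E20 and 14.37 to 14.78 (median 14.64) at week 14 and rose by 1.67 ± 0.14 (3.19-fold, adjusted p = 7.34e-11), whereas the ubiquitous form Cox8a was at 13.23 to 13.75 (median 13.68) at E20 and 11.94 to 12.41 (median 12.3) at week 14 and fell by 1.32 ± 0.08 (2.49-fold, adjusted p = 6.18e-13). Neither gene overlapped between the stages. Cox6a2, the muscle form of another subunit, rose by 1.44 ± 0.10 (2.71-fold, adjusted p = 1.3e-12). Slc25a5, the ADP/ATP carrier of proliferating cells, fell by 1.44 ± 0.10 (2.71-fold, adjusted p = 7.56e-12).

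Such exchanges were set out for 12 pairs of related genes, which were picked after their values were seen, so their directions are a description. In each pair 1 gene was lower at week 14 and the other higher. The exception is that after scaling to ribosomal protein genes Thra turned to 0.04 and Ldha did not pass (adjusted p = 0.192). The lower gene is the form known from fetal, proliferating or non-muscle cells, other than for the pairs of Hif1a, Ldha and Thra. Ldha, the lactate dehydrogenase subunit of glycolytic tissue, had a change of -0.59 ± 0.09 (adjusted p = 2.32e-06) and Ldhb, that of oxidative tissue, of 0.66 ± 0.08 (adjusted p = 1.64e-07). Ckb, the brain type of creatine kinase, fell by 1.2 ± 0.07 and Ckm, the muscle type, rose by 0.30 ± 0.08, at 14.48 to 15.06 (median 14.78) at E20 and 14.93 to 15.21 (median 15.07) at week 14 close to the ceiling. Pfkm, the muscle phosphofructokinase set against Pfkp, rose by 1.27 ± 0.10. Eno1 and Eno3, the ubiquitous and the muscle enolase, had changes of -0.88 ± 0.14 (adjusted p = 6.28e-06) and 1.4 ± 0.11 (adjusted p = 2.28e-11). Slc25a4, the ADP/ATP carrier of heart and muscle, rose by 0.45 ± 0.06, and Cox6a1, the ubiquitous partner of Cox6a2, fell by 0.82 ± 0.07. Outside metabolism, Eef1a1, the general elongation factor of translation, fell by 1.26 ± 0.06 and its muscle and nerve form Eef1a2 rose by 0.58 ± 0.13. Ezh2, the histone methyltransferase of proliferating cells, fell by 1.0 ± 0.05 and the related Ezh1 rose by 0.93 ± 0.08 by its brightest probe. The changes of the 2 Ezh1 probes ran from 0.08 to 0.93. The last pairs are Hif1a and Epas1 of the oxygen response and the thyroid hormone receptors Thra, with a change of -0.40 ± 0.09 (adjusted p = 0.000773), and Thrb.

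**Figure D3:**
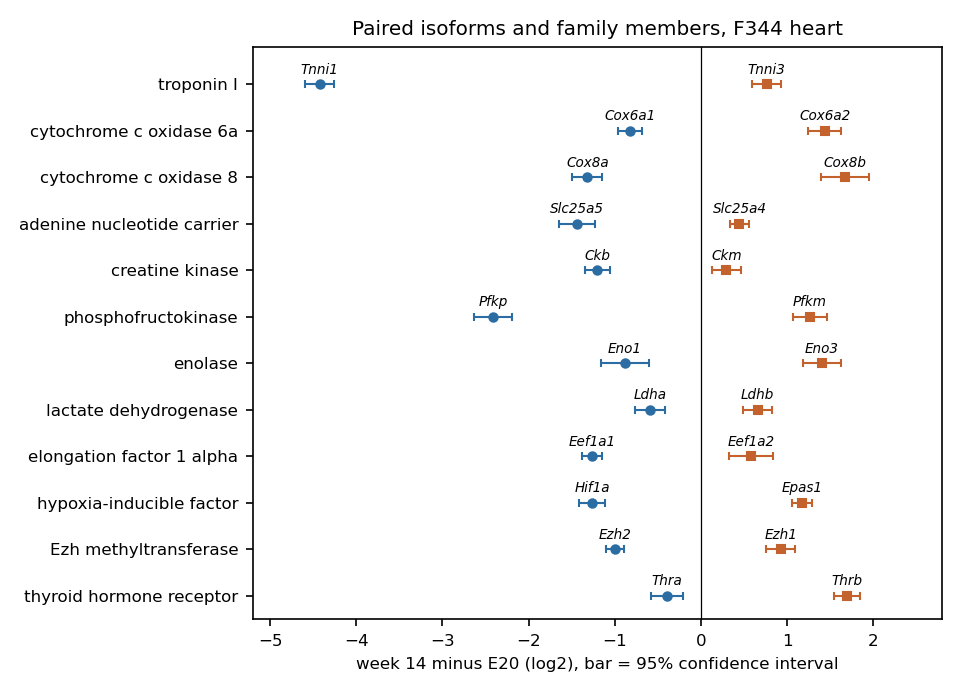
Change in log2 intensity from E20 to week 14 in F344 for 12 pairs of related genes chosen after their values were seen, with 95% confidence intervals as bars. The first gene of each pair lies below 0 and the second above it, except that after scaling to ribosomal protein genes Thra turned to 0.04.

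Genes of oxygen and energy buffering changed in both directions. In the list of creatine, adenylate and oxygen handling, 14 genes were measured, of which 7 rose, 4 fell and 3 did not pass. Ak4, an adenylate kinase of the mitochondrial matrix, was at 7.9 to 8.35 (median 8.13) at E20 and 10.55 to 10.92 (median 10.62) at week 14 and rose by 2.52 ± 0.08 (5.72-fold, adjusted p = 2.12e-19). Car4, a carbonic anhydrase bound to membranes, rose by 1.74 ± 0.09, myoglobin (Mb), the oxygen store of muscle, rose by 1.43 ± 0.07 and Ampd3, an AMP deaminase, rose by 1.21 ± 0.08. From the hypoxia list, 22 genes were measured, of which 8 rose, 4 fell and 10 did not pass (19 rose and 1 fell with ribosomal scaling). Hif1a, a transcription factor stable at low oxygen, was at 9.77 to 10.12 (median 9.91) at E20 and 8.46 to 8.95 (median 8.63) at week 14 and fell by 1.26 ± 0.07 (2.39-fold, adjusted p = 9e-14), whereas Epas1, its relative of vessels, rose by 1.17 ± 0.06 (2.26-fold, adjusted p = 2.17e-15). Pdk1, a target of Hif1a in many cells, rose by 1.53 ± 0.05, and Cited2, which competes with Hif1a for its coactivator, rose by 1.09 ± 0.10.

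Regulators of metabolism and hormone receptors rose more often than they fell. For the metabolic regulators, 27 genes were measured, of which 13 rose, 1 fell and 13 did not pass (27 rose with ribosomal scaling), and for hormone receptors and hormone metabolism, 21 genes were measured, of which 10 rose, 1 fell and 10 did not pass (20 rose with ribosomal scaling). Without E20 replicate 4, 2 hormone genes fell in place of 1. Hsd11b1, the enzyme that regenerates active glucocorticoid inside cells, was at 7.92 to 8.15 (median 8.1) at E20 and 11.28 to 12.23 (median 11.63) at week 14, and it rose by 3.56 ± 0.10 (11.8-fold, adjusted p = 1.89e-20). Klf9, a transcription factor induced by glucocorticoid and thyroid hormone, rose by 1.75 ± 0.19, Rxrg, a partner of the thyroid hormone receptors, rose by 1.97 ± 0.18 and Thrb itself rose by 1.7 ± 0.07 (3.25-fold, adjusted p = 1.25e-16). Pink1, a kinase that marks damaged mitochondria, rose by 1.98 ± 0.10. In the clock list, 14 genes were measured, of which 7 rose, 2 fell and 5 did not pass (11 rose with ribosomal scaling). Nr1d1, the clock repressor known as Rev-erb alpha, rose by 1.67 ± 0.10 (3.17-fold, adjusted p = 3.9e-13), Bhlhe40 rose by 0.91 ± 0.12 and Per2 rose by 0.90 ± 0.18, while Nfil3, a repressor of the opposite phase, fell by 0.72 ± 0.18 but did not pass after scaling to ribosomal protein genes (adjusted p = 0.134). The hour at which hearts were taken is not given in the sources used here, so its part in the clock genes was not tested.

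Ion channels and calcium handling changed in their subunits. Of potassium channels and their subunits, 24 were measured, of which 13 rose, 2 fell and 9 did not pass (23 rose with ribosomal scaling). Without week 14 replicate 8, 4 fell in place of 2. In both stages, 12 of the 24 lay under 7.5. Kcnip2, the subunit that shapes the transient outward current, was at 8.65 to 9.3 (median 8.92) at E20 and 11.43 to 12.17 (median 11.66) at week 14 and rose by 2.79 ± 0.14 (6.91-fold, adjusted p = 4.53e-15), and no E20 heart reached a week 14 heart. Abcc9 and Kcnj11, which together form a channel closed by ATP, rose by 0.91 ± 0.11 and 0.70 ± 0.08. Kcnk2, a channel opened by stretch, rose by 0.77 ± 0.12. For calcium handling, 24 genes were measured, of which 8 rose, 4 fell and 12 did not pass (20 rose and 2 fell with ribosomal scaling). Hrc, a calcium-binding protein in the lumen of the sarcoplasmic reticulum, was at 8.25 to 9.0 (median 8.6) at E20 and 10.92 to 11.95 (median 11.25) at week 14 and rose by 2.75 ± 0.13 (6.74-fold, adjusted p = 1.74e-15). Cacna1g and Cacna1h, the T-type calcium channels of the fetal heart and of pacemaker cells, fell by 1.8 ± 0.08 and 1.04 ± 0.05, to week 14 values in the lowest part of the scale. Ryr2, the release channel of the sarcoplasmic reticulum, rose by 1.49 ± 0.16 by its brightest probe, while the changes of its 4 probes ran from 0.05 to 1.49. Among sodium channels, exchangers and gap junction genes, 13 genes were measured, of which 6 rose, 2 fell and 5 did not pass (12 rose and 1 fell with ribosomal scaling). Without any 1 of week 14 replicates 6, 7 and 8 the rising count was 3. Scn4b, a subunit of the cardiac sodium channel, rose by 2.05 ± 0.11, Scn7a, a channel that responds to sodium, rose by 0.80 ± 0.06 and the anion exchanger Slc4a3 rose by 1.08 ± 0.13. Gja5, the connexin of atria, conduction fibres and arteries, was at 9.58 to 10.52 (median 9.97) at E20 and 7.72 to 8.41 (median 8.04) at week 14 and fell by 1.95 ± 0.12 (3.86-fold, adjusted p = 2.7e-13).

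Cardiac transcription factors fell more often than they rose, a majority that turned after scaling to ribosomal protein genes. From this list, 30 genes were measured, of which 2 rose, 10 fell and 18 did not pass, whereas 18 rose and 5 fell with ribosomal scaling. Without any 1 of E20 replicates 1, 2 and 5 or week 14 replicates 3, 5, 6 and 8, 1 rose in place of 2. Irx4, a factor of ventricular identity, was at 11.1 to 11.49 (median 11.29) at E20 and 9.5 to 10.59 (median 9.94) at week 14 and fell by 1.35 ± 0.14 (2.55-fold, adjusted p = 1.44e-08). Hey2, a Notch target of the compact ventricular wall, fell by 1.32 ± 0.07 (2.5-fold, adjusted p = 3.68e-15), Srf, the master factor of actin genes, fell by 1.02 ± 0.10 and Tcf21, a factor of epicardial cells and fibroblasts, fell by 0.89 ± 0.15. The largest change of the list was that of Irx4, short of the fold change limit. For receptors and peptides of neurohumoral control, 31 genes were measured, of which 6 rose, 9 fell and 16 did not pass, whereas 26 rose and 2 fell with ribosomal scaling. Adra1b, an alpha adrenergic receptor of the heart muscle cell, was at 9.39 to 9.66 (median 9.53) at E20 and 10.92 to 12.28 (median 11.66) at week 14 and rose by 2.14 ± 0.17 (4.42-fold, adjusted p = 3.92e-11). Rgs4, which shortens G protein signals, rose by 1.13 ± 0.10, and the inhibitory G protein Gnai2 fell by 1.13 ± 0.09. Nppa, the atrial natriuretic peptide that the fetal ventricle also makes, lay at 12.46 to 13.03 (median 12.91) at E20 and 10.62 to 12.2 (median 11.42) at week 14 and fell by 1.45 ± 0.20.

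Genes of collagen and its processing fell more often than they rose, although not with ribosomal scaling. Of the collagens and the enzymes that process them, 28 were measured, of which 3 rose, 18 fell and 7 did not pass, with a median of -0.34, whereas 12 rose and 12 fell with ribosomal scaling. Col1a1, a chain of collagen I, was at 9.76 to 10.35 (median 9.94) at E20 and 7.44 to 8.3 (median 7.93) at week 14 and fell by 2.07 ± 0.12 (4.21-fold, adjusted p = 4.42e-14). Its partner Col1a2 fell by 1.92 ± 0.17, Col3a1 of collagen III fell by 1.74 ± 0.21 and Col5a1, which starts collagen fibrils, fell by 1.97 ± 0.16. The stages were apart for all 4 chains. Among matricellular and adhesion genes, 35 genes were measured, of which 11 rose, 14 fell and 10 did not pass, whereas 21 rose and 8 fell with ribosomal scaling. Postn, a matrix protein of the growing heart that aids collagen crosslinking, was at 11.84 to 12.52 (median 12.06) at E20 and 7.28 to 8.87 (median 8.19) at week 14 and fell by 3.88 ± 0.20 (14.7-fold, adjusted p = 6.74e-15). Itga7, the laminin receptor of adult muscle, was at 7.42 to 7.53 (median 7.5) at E20 and 10.39 to 11.2 (median 10.81) at week 14 and rose by 3.32 ± 0.08 (9.97-fold, adjusted p = 7.94e-22). Mfap2, of elastic microfibrils, fell by 1.79 ± 0.07, whereas Fbln1, a glycoprotein of elastic fibres, rose by 1.71 ± 0.17. Myl9, the regulatory light chain of smooth muscle and non-muscle myosin, was at 12.19 to 12.95 (median 12.27) at E20 and 7.8 to 8.19 (median 8.01) at week 14, and it fell by 4.44 ± 0.12 (21.7-fold, adjusted p = 3.1e-21).

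Genes of growth factor signals changed in both directions, with a median change of 0.007 against 0.0055 over all named genes. With ribosomal scaling, which lifts every change by 0.44, most of them rose. For the genes of TGF-beta, BMP, Wnt, Notch, FGF and Hippo signals, 57 genes were measured. Of them 17 rose, 12 fell and 28 did not pass (45 rose and 4 fell with ribosomal scaling). Of these genes, 29 lay under 7.5 in both stages. Fzd1, a Wnt receptor, fell by 2.24 ± 0.10 (4.73-fold, adjusted p = 8.88e-16), Fstl1, a secreted protein of the epicardium, fell by 1.81 ± 0.11 and Pdgfa fell by 0.96 ± 0.09, while Fgf12, a modulator of sodium channels, rose by 1.09 ± 0.24. In the list of matrix proteases and their inhibitors, 23 genes were measured, of which 4 rose, 6 fell and 13 did not pass, whereas 17 rose and 1 fell with ribosomal scaling. Without any 1 of E20 replicates 1, 3 and 5 or week 14 replicates 5 and 7, 2 rose in place of 4. For genes of axon and vessel guidance, 27 genes were measured, of which 3 rose, 10 fell and 14 did not pass. With ribosomal scaling 22 rose, and 18 of the 27 lay under 7.5 in both stages.

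Markers of macrophages, MHC class II and lymphocytes rose more often than they fell. Of macrophage markers, 17 were measured, of which 15 rose and 2 did not pass, with a median of 1.13. Fcer1g, a signalling chain of Fc receptors, was at 8.04 to 8.94 (median 8.71) at E20 and 10.58 to 11.22 (median 10.95) at week 14 and rose by 2.33 ± 0.12 (5.04-fold, adjusted p = 5.96e-15). C1qc and C1qb, complement subunits made by tissue macrophages, rose by 2.24 ± 0.16 and 2.06 ± 0.16, and the lysosomal protease Ctss rose by 2.2 ± 0.12. Every week 14 heart lay above every E20 heart for these genes. From the MHC class II list, of genes by which antigen is shown to helper T cells, 11 genes were measured, of which 7 rose and 4 did not pass (11 rose with ribosomal scaling). RT1-Da, a class II chain, was at 7.38 to 7.73 (median 7.56) at E20 and 11.53 to 12.71 (median 12.14) at week 14, and it rose by 4.54 ± 0.12 (23.3-fold, adjusted p = 7.18e-21). Cd74, the chaperone of class II molecules, was at 7.23 to 7.43 (median 7.3) at E20 and 9.93 to 10.6 (median 10.23) at week 14 and rose by 2.94 ± 0.08 (7.67-fold, adjusted p = 2.47e-21), and the chains RT1-Db1 and RT1-Ba rose by 2.83 ± 0.11 and 1.76 ± 0.08. Probes of the RT1 family may bind related copies, which was not tested. Of T, NK and B lymphocyte markers, 20 were measured, of which 15 rose and 5 did not pass, and 12 of them lay under 7.5 in both stages. Ccl5, a chemokine of these cells, was at 7.19 to 7.36 (median 7.27) at E20 and 10.45 to 11.34 (median 11.003) at week 14 and rose by 3.68 ± 0.09 (12.8-fold, adjusted p = 9.77e-22). Nkg7, of cytotoxic granules, rose by 2.3 ± 0.10, the NK receptor Klrd1 rose by 1.7 ± 0.08 and the granule protease Gzma rose by 1.41 ± 0.08. Of mast cell and neutrophil markers, 14 were measured, of which 3 rose, 2 fell and 9 did not pass (13 rose with ribosomal scaling), with a median of 0.01, and 13 of them lay under 7.5 in both stages. Macrophage, class II and lymphocyte lists all had higher array means at week 14 than at E20. For macrophage markers the array means were 7.59 to 7.83 at E20 and 8.65 to 9.1 at week 14. The lists did not rank the week 14 hearts alike. Replicate 4 had the highest class II mean (8.911) and a low macrophage mean (8.694).

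Interferon-induced genes and complement rose. For interferon-induced genes, 24 genes were measured, of which 20 rose and 4 did not pass, with a median of 0.69. Psmb8, the subunit of the immunoproteasome that replaces a constitutive one, was at 7.31 to 7.69 (median 7.4) at E20 and 10.19 to 11.37 (median 10.68) at week 14 and rose by 3.23 ± 0.13 (9.4-fold, adjusted p = 3.23e-17). B2m, the shared light chain of MHC class I, was at 12.1 to 12.62 (median 12.46) at E20 and 14.82 to 15.06 (median 14.89) at week 14 and rose by 2.45 ± 0.05 (5.45-fold, adjusted p = 1.89e-22), the class I gene RT1-A3 rose by 2.58 ± 0.10 and RT1-A1, of the same family and outside the list, rose by 3.56 ± 0.10 (11.8-fold, adjusted p = 6.69e-21). Irf1, a transcription factor of the interferon response, rose by 1.92 ± 0.29. Cxcl11, a chemokine induced by interferon gamma, lay at 7.57 to 8.0 (median 7.76) at E20 and 10.84 to 12.47 (median 11.41) at week 14 and rose by 3.75 ± 0.16 (13.5-fold, adjusted p = 8.09e-17). In the complement and acute phase list, 19 genes were measured, of which 15 rose and 4 did not pass, with a median of 1.29. C1s, a protease that starts the classical pathway, had the largest measured rise of the named genes and lay at 7.15 to 7.3 (median 7.18) at E20 and 11.69 to 12.35 (median 12.01) at week 14. It rose by 4.81 ± 0.10 (28.1-fold, adjusted p = 1.17e-22), and its partner C1r rose by 2.92 ± 0.10 (7.56-fold, adjusted p = 1.76e-18). Clu, an extracellular chaperone that also inhibits complement, rose by 2.69 ± 0.11. Hamp, the iron hormone hepcidin, rose by 2.8 ± 0.43 with a wide spread, from 9.05 to 12.95 at week 14. Pla2g2a, a secreted phospholipase that attacks bacteria, lay at 7.44 to 8.26 (median 7.6) at E20 and 10.66 to 12.45 (median 11.97) at week 14 and rose by 4.01 ± 0.25 (16.1-fold, adjusted p = 5.17e-13).

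Of the interferon genes that rose, 18 had a promoter in the RefSeq table, and 12 of these (66.7%) held GAAA and GAAA 2 bases apart, the core of the element that interferon regulatory factors bind, against 3.37% of all promoters. Psmb8, Ifitm3 and Irf7 are shown with this pattern in capitals, and the last 2 were chosen after their values and sequences were seen. Ifitm3, which blocks the entry of viruses, rose by 1.49 ± 0.13 (2.81-fold, adjusted p = 6.1e-10), and Irf7, the factor that amplifies interferon, rose by 1.43 ± 0.18 (2.69-fold, adjusted p = 2.12e-07).
Psmb8 (chr20:4657002-4657151, minus strand): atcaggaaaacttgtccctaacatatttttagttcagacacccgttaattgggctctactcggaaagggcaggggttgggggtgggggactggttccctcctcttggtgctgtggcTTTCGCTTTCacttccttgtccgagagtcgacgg
Ifitm3 (chr1:205541729-205541878, minus strand): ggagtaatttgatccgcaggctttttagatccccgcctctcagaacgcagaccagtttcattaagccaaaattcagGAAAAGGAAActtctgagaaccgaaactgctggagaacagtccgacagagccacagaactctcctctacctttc
Irf7 (chr1:205799994-205800143, minus strand): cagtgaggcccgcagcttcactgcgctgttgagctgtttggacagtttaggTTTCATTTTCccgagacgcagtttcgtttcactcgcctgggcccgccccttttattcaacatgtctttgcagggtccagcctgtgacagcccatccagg

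**Figure D4:**
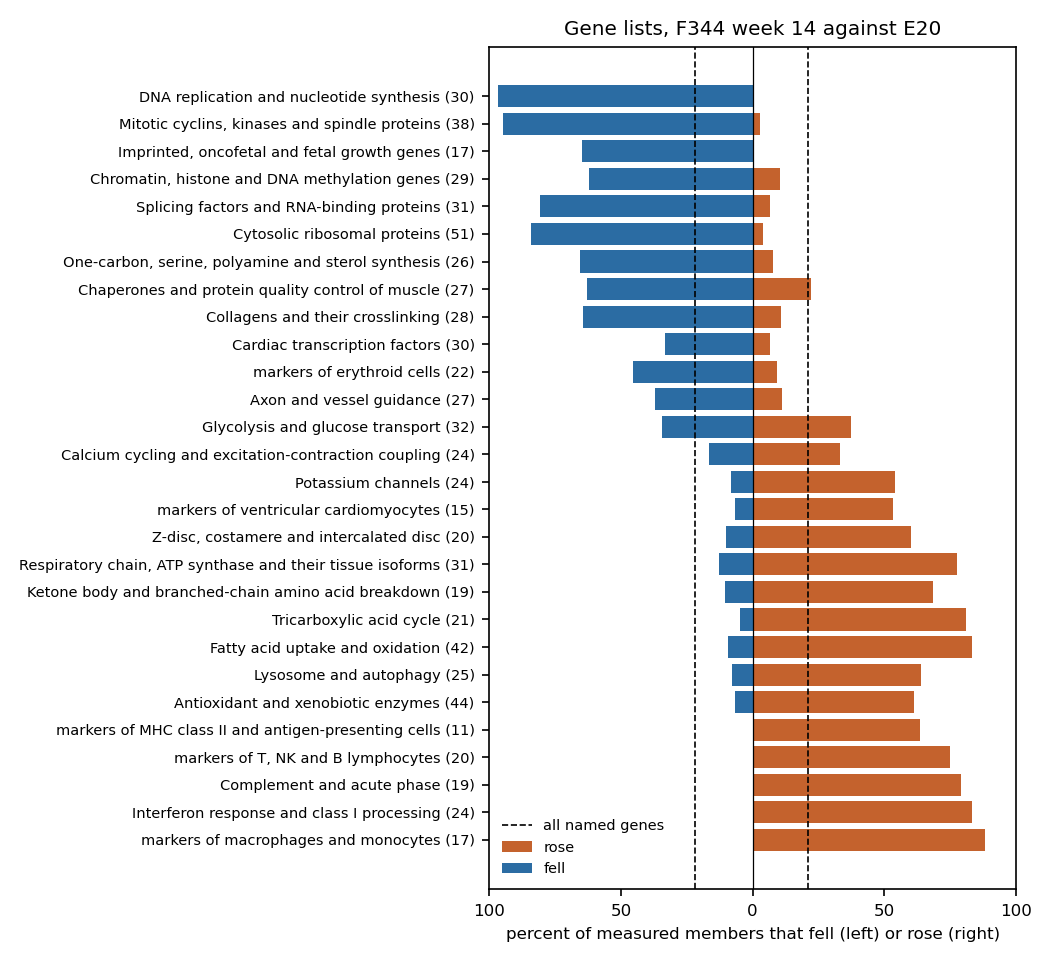
Percent of measured members that rose (right) or fell (left) in F344 from E20 to week 14 in 28 of the 54 gene lists, with the number of members in brackets and dashed lines at 21.1% rising and 22.0% falling of all named genes. Mitosis and replication lie almost wholly on the left and macrophage markers on the right, while cardiac transcription factors, erythroid markers, guidance, chaperones and the synthesis list turn their majority after scaling to ribosomal protein genes.

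Genes of translation and RNA processing fell more often than they rose, by a smaller margin with ribosomal scaling, which by its construction centres the ribosomal protein genes. For ribosomal proteins, 51 genes were measured, of which 2 rose, 43 fell and 6 did not pass (10 rose and 18 fell with ribosomal scaling), with a median of -0.47. Rpl3 was at 14.66 to 15.01 (median 14.81) at E20 and 12.54 to 13.31 (median 13.01) at week 14 and fell by 1.85 ± 0.09 (3.6-fold, adjusted p = 3.4e-15), Rpl31 fell by 1.7 ± 0.08, Rpl15 fell by 1.02 ± 0.08 and Rpl13 fell by 0.98 ± 0.12. Among splicing factors, 31 genes were measured, of which 2 rose, 25 fell and 4 did not pass (7 rose and 10 fell with ribosomal scaling), with a median of -0.53. Rbfox1 stood against this direction, at 7.27 to 7.5 (median 7.29) at E20 and 9.8 to 11.83 (median 11.13) at week 14, and it rose by 3.69 ± 0.21 (12.9-fold, adjusted p = 5.78e-14). Snrpa, a protein of the U1 particle, fell by 1.55 ± 0.14, and the RNA-binding proteins Hnrnpf and Hnrnpd fell by 1.11 ± 0.08 and 1.11 ± 0.07. In the chromatin list, 29 genes were measured, of which 3 rose, 18 fell and 8 did not pass (12 rose and 13 fell with ribosomal scaling). Hmgb2, a DNA-bending protein of dividing cells, was at 11.58 to 11.87 (median 11.79) at E20 and 8.09 to 8.55 (median 8.33) at week 14 and fell by 3.41 ± 0.09 (10.6-fold, adjusted p = 1.44e-21). The histone variant H2az1 fell by 2.2 ± 0.08, the nucleosome-binding Hmgn1 fell by 1.43 ± 0.06 and the histone methyltransferase Suv39h1 fell by 1.44 ± 0.14. From genes of one-carbon, serine, polyamine and sterol synthesis, 26 genes were measured. Of them 2 rose, 17 fell and 7 did not pass, whereas 12 rose and 7 fell with ribosomal scaling. Sqle and Dhcr7 of sterol synthesis fell by 2.1 ± 0.06 and 1.28 ± 0.07, Phgdh, which starts serine synthesis, fell by 1.33 ± 0.05 and Amd1, of polyamine synthesis, rose by 1.29 ± 0.14.

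In protein quality control, most chaperones fell and most lysosome and autophagy genes rose, but the majority of the chaperones turned with ribosomal scaling. Of chaperones, 27 were measured, of which 6 rose, 17 fell and 4 did not pass, whereas 12 rose and 9 fell with ribosomal scaling. The small heat shock protein Hspb6, which is abundant in muscle, was at 11.82 to 12.51 (median 12.08) at E20 and 14.79 to 15.08 (median 14.92) at week 14 and rose by 2.79 ± 0.07 (6.91-fold, adjusted p = 4.5e-21). Hspb8 and its partner Bag3, which clear damaged filament proteins, rose by 1.8 ± 0.12 and 1.69 ± 0.09, whereas Hspb3, another small heat shock protein, fell by 1.41 ± 0.09. For lysosome and autophagy, 25 genes were measured, of which 16 rose, 2 fell and 7 did not pass (23 rose with ribosomal scaling). Map1lc3a, a coat protein of autophagosomes, rose by 1.85 ± 0.08, and Lgals3, a lectin that macrophages make, rose by 2.05 ± 0.23. Sqstm1, an autophagy receptor, rose by 1.7 ± 0.09 by its brightest probe, with changes of -0.44 to 1.70 over its 3 probes. Detoxifying and antioxidant enzymes rose. Of these, 44 were measured, of which 27 rose, 3 fell and 14 did not pass (42 rose with ribosomal scaling), with a median of 0.80. Ces1d, a carboxylesterase, was at 6.97 to 7.12 (median 7.03) at E20 and 9.92 to 11.1 (median 10.7) at week 14 and rose by 3.57 ± 0.13 (11.9-fold, adjusted p = 2.88e-18). Aldh1a1, a retinaldehyde dehydrogenase, lay at 7.48 to 7.82 (median 7.7) at E20 and 10.24 to 11.33 (median 10.97) at week 14 and rose by 3.26 ± 0.11 (9.56-fold, adjusted p = 5.6e-19). Cyp4b1, a cytochrome P450, rose by 2.52 ± 0.13, and Sod3, the extracellular superoxide dismutase, rose by 2.22 ± 0.12. Akr1c15, an aldo-keto reductase outside the list, rose by 3.37 ± 0.08 (10.3-fold, adjusted p = 7.38e-22).

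Genes in wide use as references were not constant. From a list of such genes, 15 genes were measured, of which 3 rose, 11 fell and 1 did not pass (4 rose and 5 fell with ribosomal scaling), with a median of -0.40. Tubb5, a tubulin, fell by 1.55 ± 0.08, Eef1a1 fell by 1.26 ± 0.06 and Ppia, a prolyl isomerase, fell by 1.25 ± 0.09, without overlap of the stages. The changes of the 5 Eef1a1 probes ran from -1.34 to 0.05. Hprt1, the reference of the study's PCR, was at 12.01 to 13.04 (median 12.55) at E20 and 12.74 to 13.23 (median 13.04) at week 14, and it rose by 0.47 ± 0.11 (1.38-fold, adjusted p = 0.00138) with overlapping stages.

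The remaining genes with large falls have other roles. Itm2a, a membrane protein of differentiating cells, was at 12.29 to 12.87 (median 12.49) at E20 and 8.65 to 9.96 (median 9.2) at week 14 and fell by 3.28 ± 0.15 (9.71-fold, adjusted p = 1.08e-15). Epb41l3, which links membrane proteins to actin, fell by 3.45 ± 0.08 (10.9-fold, adjusted p = 1.89e-22), and the cadherin-related Cdhr1 fell by 3.49 ± 0.07 (11.2-fold, adjusted p = 1.17e-22). The stages were apart for these genes.

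Markers of the cells that the tissue can hold were read as lists. Of ventricular cardiomyocyte markers, 15 were measured, of which 8 rose, 1 fell and 6 did not pass (14 rose and 1 fell with ribosomal scaling), with array means of 13.23 to 13.49 at E20 and 13.6 to 13.74 at week 14, in the upper part of the scale in every array. Without week 14 replicate 7 or 8, 2 fell in place of 1. For atrial markers, 13 genes were measured, of which 3 rose, 4 fell and 6 did not pass, whereas 9 rose and 3 fell with ribosomal scaling, and by the methods the atria had been removed. Myl7 and Gja5 are members that fell and Clu is a member that rose. From conduction system markers, 12 genes were measured, of which 5 fell and 7 did not pass, whereas 7 rose and 4 fell with ribosomal scaling. The members that fell include Cacna1g, Gja5 and Smoc2, a matrix protein, which fell by 1.54 ± 0.09. The part of the different dissection in these falls was not tested.

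Among endothelial markers, 18 genes were measured, of which 8 rose, 2 fell and 8 did not pass (16 rose with ribosomal scaling). Vwf, the clotting factor of endothelium, rose by 1.81 ± 0.17 (3.51-fold, adjusted p = 1.4e-09), Sox17, a factor of arteries, rose by 0.99 ± 0.12, Fabp4, a fatty acid carrier of capillaries, rose by 0.90 ± 0.08 and Lyve1, of lymph vessels and resident macrophages, rose by 0.94 ± 0.13. The fibroblast list split, as 15 genes were measured, of which 7 rose, 7 fell and 1 did not pass: Dpt, a matrix protein of adult fibroblasts, was at 9.5 to 9.85 (median 9.57) at E20 and 11.45 to 11.99 (median 11.68) at week 14 and rose by 2.08 ± 0.07 (4.23-fold, adjusted p = 1.14e-18), while collagen chains fell. For smooth muscle and pericyte markers, 12 genes were measured, of which 5 rose, 3 fell and 4 did not pass (9 rose and 1 fell with ribosomal scaling), and for markers of the epicardium, 9 genes were measured, of which 5 fell and 4 did not pass, whereas 4 rose with ribosomal scaling. Among adipocyte markers, 11 genes were measured, of which 5 rose, 1 fell and 5 did not pass (10 rose and 1 fell with ribosomal scaling). Cfd, which adipocytes secrete, rose by 2.24 ± 0.10, and Lipe, the hormone-sensitive lipase that heart muscle also has, rose by 1.57 ± 0.08. Array means of the adipocyte list were 7.62 to 7.7 at E20 and 7.98 to 8.14 at week 14.

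Among red cell genes the embryonic globin and a precursor chaperone fell. Of erythroid markers, 22 were measured, of which 2 rose, 10 fell and 10 did not pass, whereas 15 rose and 4 fell with ribosomal scaling. Hbe1, an embryonic globin, was at 8.51 to 9.78 (median 9.14) at E20 and 6.92 to 7.03 (median 6.96) at week 14 and fell by 2.14 ± 0.14 (4.41-fold, adjusted p = 1.85e-12), and Ahsp, the chaperone of alpha globin in red cell precursors, fell by 2.16 ± 0.15 (4.47-fold, adjusted p = 5.53e-12). For Hbb the values were 15.15 to 15.53 (median 15.44) at E20 and 12.82 to 14.44 (median 13.9) at week 14, near the ceiling at E20, and it fell by 1.62 ± 0.18, while Hbb-b1 fell by 1.26 ± 0.21 with overlap. Globin probes may share transcripts of related copies. Of liver genes, 13 were measured, of which 4 rose and 9 did not pass (13 rose with ribosomal scaling). Of the 13, 10 lay under 7.5 in both stages. Tf, the iron carrier transferrin, was at 8.55 to 8.95 (median 8.71) at E20 and 10.61 to 11.41 (median 11.23) at week 14 and rose by 2.41 ± 0.10 (5.32-fold, adjusted p = 1.05e-16), and Cyp2e1 and Ttr rose by 1.65 ± 0.19 and 0.93 ± 0.08. Albumin (Alb), the defining liver marker, named after its values were seen, stayed near the lower end of the scale, at 6.83 to 7.0 (median 6.92) at E20 and 6.93 to 7.08 (median 7.0) at week 14, with a change of 0.09 ± 0.04 (adjusted p = 0.0701). Neural markers and skeletal muscle markers lay mostly low on the scale: in the first, 15 genes were measured, of which 4 rose, 1 fell and 10 did not pass (14 rose and 1 fell with ribosomal scaling), and in the second, 13 genes were measured, of which 2 rose, 4 fell and 7 did not pass, whereas 12 rose with ribosomal scaling. Under 7.5 in both stages lay 9 of the neural and 11 of the skeletal muscle markers. The part of changes in cell makeup in the results above was not tested.

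**Figure D5:**
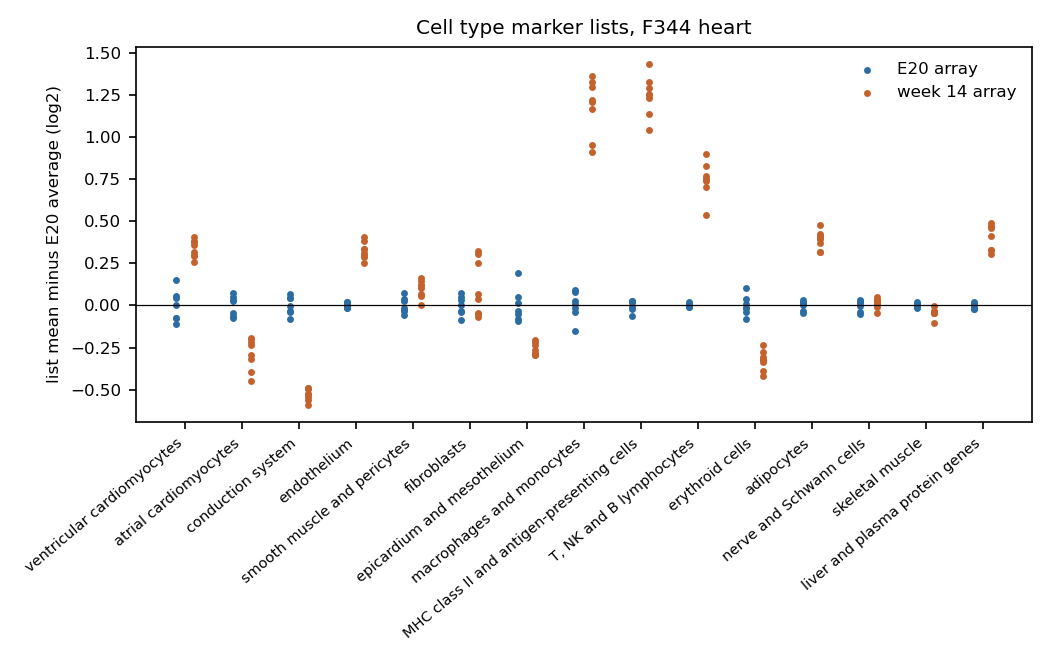
Mean log2 intensity over the members of each marker list in each F344 heart, less the average of the E20 hearts for that list, with 7 hearts at E20 and 8 at week 14, 1 point per heart. Macrophage markers, at list means of 7.59 to 7.83 at E20 and 8.65 to 9.1 at week 14, stand apart between the stages. The ventricular cardiomyocyte, endothelial, class II, lymphocyte, adipocyte and liver lists do so too, also higher at week 14. Apart and lower at week 14 are the atrial, conduction, epicardial and erythroid lists. The majority of members of these 4 lists and of the skeletal list turns after scaling to ribosomal protein genes.

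Over genes bright in both stages, hearts were similarly uniform within each stage. Over 2098 named genes with both stage means above 9, the median SD between hearts was 0.17 at E20 and 0.17 at week 14, and the SD was larger at week 14 for 1037 of them (49.4%).

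In SHRSP, whose arrays are not shared with the F344 comparison, 255 probes rose (1.13%) and 217 fell (0.963%) past the limits. Of these, 186 rose in both strains, 75.6% of the F344 list and 72.9% of the SHRSP list, and 172 fell in both, 86.9% and 79.3%. All 246 and 198 probes called in F344 changed in the same direction in SHRSP, by their fitted values. The interaction of strain and stage passed an adjusted p under 0.05 for 667 of all probes (2.96%), and for 37 of the 246 probes that rose and 17 of the 198 that fell in F344. Among the genes with the largest changes, Ccl5 had 3.68 in F344 and 1.56 in SHRSP (interaction 2.11 ± 0.14, adjusted p = 2.41e-10). For RT1-Da the changes were 4.54 in F344 and 3.68 in SHRSP (interaction 0.86 ± 0.19, adjusted p = 0.00804), and for Aldh1a1 3.26 in F344 and 4.72 in SHRSP (interaction -1.47 ± 0.17, adjusted p = 1.12e-06). Myl9 fell further in F344, with -4.44 in F344 and -3.62 in SHRSP (interaction -0.82 ± 0.18, adjusted p = 0.00692). Nkg7 had 2.3 in F344 and 0.64 in SHRSP (interaction 1.66 ± 0.16, adjusted p = 8.15e-08). Gzma, which did not pass in SHRSP, had 1.41 in F344 and 0.03 in SHRSP (interaction 1.38 ± 0.12, adjusted p = 1.4e-08). Lpl changed by 2.71 in F344 and 3.85 in SHRSP (interaction -1.15 ± 0.11, adjusted p = 8.15e-08) and Psmb8 by 3.23 in F344 and 1.91 in SHRSP (interaction 1.33 ± 0.20, adjusted p = 8.13e-05). Myl7 and Acta1 fell in F344 by amounts that differed from SHRSP, with -2.46 in F344 and -6.24 in SHRSP (interaction 3.78 ± 0.31, adjusted p = 6.25e-09) for Myl7 and -2.67 in F344 and -0.33 in SHRSP (interaction -2.33 ± 0.28, adjusted p = 1.69e-06) for Acta1. Nppa had -1.45 in F344 and 1.13 in SHRSP (interaction -2.59 ± 0.31, adjusted p = 1.81e-06), opposite directions of which each passed the test. The 4 SHRSP arrays at E20 limit these comparisons, and E20 values of Myl7 and Acta1 and week 14 values of Lpl near the ceiling can compress them.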

How the data were processed

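RNA of hearts from male F344 and SHRSP rats at E20 and week 14 was amplified, biotin-labelled and hybridised to Illumina RatRef-12 BeadChips, 1 array per animal. The authors exported probe intensities from GenomeStudio, excluded arrays that correlated poorly with others of the group in the R package lumi, and deposited log2 intensities that were quantile-normalized over the arrays. Background correction is not given in the sources used here. The deposited log2 values, of 22523 probes and 26 arrays, were taken without change. A table of raw intensities with 52 columns was not used, because its column names match no sample label, so no filter on detection was made. Groups and replicate numbers came from the sample labels.

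limma 3.58.1 in R 4.3.3 was fitted with a mean for each group of strain and stage over all 26 arrays, as the methods name lmFit and eBayes, with Benjamini-Hochberg adjustment over the whole set of probes. A probe was called at an adjusted p under 0.05 with a log2 fold change past 1.5 in either direction. Members of gene lists were counted by the adjusted p alone, and no list was tested as a set. Of the probes, 13793 have 1 gene name and 8730 have none here. The current name was found by gene ID for 13752 probes and kept from the annotation table of the array for 41. Of the 13337 named genes, 425 have more than 1 probe and are represented by their brightest probe. The genes named are the 15 highest and 15 lowest called genes without overlap, the 4 members with the largest changes past the adjusted p in each list, or fewer, and Hprt1, with other genes named as chosen after their values were seen. The members of the comparison and the lists were chosen with earlier results of these data known.

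Promoters are those of RefSeq on assembly GRCr8, whose motifs were counted on both strands by exact match. On simulated data for the F344 comparison with 22523 probes, all 50 probes changed by 1.8, 50 changed by 2.5 and 50 changed by -2.5 were called. The 50 changed by 1 all passed the adjusted p. Of 22323 unchanged probes 13 passed it, and none was called. Alternatives were only the F344 arrays in the fit, a replicate block, limma-trend, array weights, cyclic loess, scaling to ribosomal protein genes, normexp background correction with an offset of 50, only the brighter probes, treat against a log2 fold change of 1, the mean over the probes of a gene, and each F344 array left out in turn. The number of arrays limits the precision. Python 3.11.15 with pandas 2.3.3, NumPy 2.4.6 and, for plots, Matplotlib 3.10.9 was used for the rest.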

Additional observations from a re-analysis of the deposited data

Results flagged for a closer look

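Among the 197 genes named with values, 394 groups of hearts, of a gene at a stage, were screened for a heart whose gap to the nearest other heart was large against the range of its stage, and 29 were found. Chance alone gives such a gap in about 1 in 20 groups. For week 14 replicate 3 the log2 values so far from the rest were those of Amd1 (10.18, median of the stage 11.32), Ankrd1 (15.26, 14.71), Igf1r (8.36, 7.94), Nkg7 (8.79, 9.6), Ogdh (13.29, 13.77), Pdk1 (12.05, 12.32), Pdlim5 (8.99, 7.39) and Suv39h1 (9.53, 8.4). E20 replicate 2 stood out in Ankrd1 (14.2, 13.72), B2m (12.1, 12.46), Ifitm3 (9.46, 10.38), Ogdh (12.81, 12.17) and Rrm2 (11.81, 11.25). E20 replicate 5 stood out in Ampd3 (8.74, 8.49), Kcnj11 (7.7, 7.86), RT1-A3 (7.87, 8.22) and Rbfox1 (7.5, 7.29). Week 14 replicate 7 stood out in Acaa2 (13.57, 13.07) and Ak4 (10.92, 10.62). Week 14 replicate 1 stood out in C1r (10.18, 10.78) and Slc25a4 (15.01, 15.16). E20 replicate 1 stood out in Dhcr7 (8.36, 8.61) and Rpl13 (11.7, 11.1). Week 14 replicate 4 stood out in B2m (15.06, 14.89). Week 14 replicate 2 stood out in Ccne2 (7.0, 7.14). Week 14 replicate 6 stood out in Irf7 (10.07, 8.93). Week 14 replicate 5 stood out in Myh6 (14.67, 14.998). E20 replicate 7 stood out in Nppa (12.46, 12.91). E20 replicate 3 stood out in Pla2g2a (8.26, 7.6).

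The change from E20 to week 14 differed between F344 and SHRSP by the interaction of strain and stage in limma, at an adjusted p under 0.05, for 26 of the 197 genes. The difference, F344 minus SHRSP on the log2 scale, was positive for Myl7 (3.78), Ccl5 (2.11), Nkg7 (1.66), Ahsp (1.55), Gzma (1.38), RT1-Db1 (1.38), Psmb8 (1.33), Per2 (1.02), RT1-Da (0.86), Ezh1 (0.79), Klrd1 (0.76), Eno3 (0.74), Bhlhe40 (0.69), RT1-A3 (0.65), Bdh1 (0.57) and B2m (0.47). It was negative for Nppa (-2.59), Acta1 (-2.33), Hbb-b1 (-1.78), Aldh1a1 (-1.47), Lpl (-1.15), Myl9 (-0.82), Ankrd1 (-0.72), Hspb3 (-0.66), Dlk1 (-0.58) and Myoz2 (-0.39). Strain, sequence variants under a probe and the makeup of the tissue were not tested as causes of these differences.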

How the results depend on the processing

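The counts of called probes moved by less than 1.5 times in 88 of 92 recomputed values, and the other 4 come from scaling to ribosomal protein genes. That scaling gave 499 probes that rose and 109 that fell in F344, and 471 and 68 in both strains, against 186 and 172. It moves every change by 0.44, which its construction fixes. Without 1 F344 array in turn, 241 to 260 probes rose, 195 to 205 fell, 183 to 197 rose in both strains and 168 to 175 fell in both. normexp background correction gave 342 rising and 295 falling probes, and treat 301 and 292. Of the named genes, 4717 of 4727 values kept direction and side of the threshold. Under the ribosomal scaling Thra turned to 0.044 (adjusted p = 0.688) and Igf1r, Ldha and Nfil3 no longer passed. The other changes concern Alb, which passed under that scaling, with the replicate block, cyclic loess or only the F344 arrays, and without E20 replicate 3 or week 14 replicate 1. Of 2592 counts of list members 2488 kept within 1.5 times, and most of the others changed under the ribosomal scaling. Those that moved when 1 array was left out are named beside their lists. With only the brighter probes, which leaves fewer genes to test, falling guidance genes went from 10 to 4 and falling skeletal muscle markers from 4 to 1. The cause of the other changes was not tested.

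The replicate numbers belong to different animals at the stages. Over 7 numbers the deviations of same-numbered arrays correlated with r of -0.19 to 0.03, and none correlated best with its own number. A fit with the replicate number as a block called 244 rising and 197 falling probes, of which 239 and 197 were called without it. It lowered the rising cardiac transcription factors to 1 and the rising proteases to 2, and it let 1 gene of fetal growth rise.

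Depth is not defined for these arrays. Dim probes understate changes, and values near 15.53 compress them.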
